A study of Mus musculus with 12 samples.

Results

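Desmosomal cadherins and corneodesmosin, the proteins that hold keratinocytes together from the outside of the cell, were examined in mouse back skin after imiquimod (IMQ) and after IMQ followed by Banzhilian formula (BZLF). The genes were taken by symbol: the desmogleins Dsg1a, Dsg1b, Dsg1c, Dsg2, Dsg3 and Dsg4, the desmocollins Dsc1, Dsc2 and Dsc3, and Cdsn, which encodes corneodesmosin. All 10 were found among the 18505 genes of the deposited table. The samples came from male wild-type BALB/c mice, 5 to 6 weeks old, whose backs were shaved, and skin was collected on day 10. The control group (4 samples) received petroleum jelly. The IMQ + NS group (4 samples) received IMQ cream daily and then a sodium chloride solution under gauze and film. The IMQ + BZLF group (4 samples) received the same cream and then BZLF, a preparation of medicinal plants and cicada slough, under the same cover. A cover is described for the IMQ groups only, so its effect and that of IMQ cannot be told apart, and the dose of BZLF behind these libraries is not given in the sources used here.

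Desmosomes are the spot-like junctions that join the keratin networks of neighbouring cells. Desmogleins and desmocollins are calcium-dependent adhesion proteins whose outer parts meet between the cells, while their tails bind plakoglobin (Jup), plakophilins and desmoplakin (Dsp). In the epidermis desmoglein 1 and desmocollin 1 are known mostly from the upper layers and desmoglein 3 and desmocollin 3 from the lower layers, desmoglein 4 is known from the uppermost living layers and above all from the hair follicle, and corneodesmosin is added to the junction as cells cornify, where proteases of the kallikrein family later cut it to let the cells be shed. The mouse carries several copies of desmoglein 1 where the human genome has a single gene, and antibodies against desmogleins 1 and 3 cause the blistering disease pemphigus.

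The sequence before the start of Cdsn is shown because the other 9 genes of the set lie together elsewhere. It holds the 250 bases at chr17:35551878-35552127 (GRCm38.p6, plus strand, from RefSeq), printed with a CACCC box, a motif that Klf family factors are known to bind, in capitals.
Cdsn: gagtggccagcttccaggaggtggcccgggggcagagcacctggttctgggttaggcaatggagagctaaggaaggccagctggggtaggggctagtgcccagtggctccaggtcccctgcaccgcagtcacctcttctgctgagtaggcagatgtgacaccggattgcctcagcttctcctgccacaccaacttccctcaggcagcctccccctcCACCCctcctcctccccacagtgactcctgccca
The motifs searched on both strands were the TATA box (TATAAA), the box in capitals (CACCC), the binding site of AP-1 factors (TGANTCA) and the binding site of grainyhead-like factors (AACCGGTT). CACCC had 1 match, 34 bases before the start, and is found in 52.0% of 32851 windows of the same length before RefSeq starts. The other 3 had 0 matches here and are found in 12.4%, 6.75% and 0.116% of those windows.

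The desmogleins and desmocollins lie in 1 cluster on chromosome 18 that spans 644 kb (GRCm38, bases 19960930 to 20604521), the 3 desmocollins on the minus strand and the 6 desmogleins on the plus strand. From left to right the order is Dsc3, Dsc2, Dsc1, Dsg1c, Dsg1a, Dsg1b, Dsg4, Dsg3 and Dsg2, and the longest coding transcript of each has 15 to 17 exons. Cdsn is on chromosome 17 (bases 35552128 to 35557180, plus strand) and has 2 exons. The desmoglein 1 copies are alike enough to matter for the measurement. Of the 75-base words in the longest coding transcript, 39.7% in Dsg1b, 29.2% in Dsg1a and 20.03% in Dsg1c occur also in a transcript of another gene, nearly always another desmoglein 1 copy, against 0% in each of the other 7 genes. The sources differ on the software that assigned such reads, so the separate values of the desmoglein 1 copies are uncertain, and their sum is given as well.

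Expression was read as FPKM, fragments scaled to transcript length and sequencing depth. This level per length can be compared between samples only as far as their totals are alike. The FPKM of a sample added up to 444660 to 461199 in controls and 476676 to 506622 in the IMQ groups, so other scalings were tried as well. Read counts were not used here, so the depth behind each value is unknown and the spread of the 4 samples gives the precision. All 6 basal and all 5 suprabasal keratinocyte markers were above 0 in all 12 samples. Some libraries stood apart or held genes of other tissues. In control replicate 2 the 7 inner root sheath genes summed to 1959 FPKM against 19.3 to 57.5 in the other controls. The 4 seminal vesicle genes summed to 36.6 FPKM in control replicate 2 and 36.3 FPKM in IMQ + BZLF replicate 2, and to at most 0.0441 FPKM in the other 10 samples. The 4 pancreas genes summed to 122, 127, 140 and 13.2 FPKM in control replicates 1 to 4, to 30.0, 37.6, 158 and 2.01 FPKM in IMQ + NS replicates and to 117, 122, 132 and 13.5 FPKM in IMQ + BZLF replicates, highest in replicate 3 and lowest in replicate 4 of each group. Their part in the results was not tested.

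The first question was how the set differs between normal skin (control) and IMQ-treated skin (IMQ + NS). Every one of the 10 genes was higher in the lesions, with no overlap between the groups. By limma with Benjamini-Hochberg adjustment over 15288 genes, 9 of the 10 rose past an adjusted p of 0.05 and a log2 fold change of 1. Of all genes tested, 11.4% were higher past these limits and 11.0% lower, and 23.7% were higher without overlap and 25.7% lower. With no limit on the fold change all 10 genes were higher, against 29.0% of all genes tested, and 0 lower, against 27.1%. The median log2 fold change of the 10 was 1.85 and that of all genes tested was 0.05. Dsg1c is in the counts of 9 and 10, though it averaged 0.0555 FPKM in controls. It passed the filter of a mean of 0.1 FPKM over the 12 samples only through the IMQ groups, so it adds no weight to those counts. The sources do not say that each sample came from a separate mouse, so p-values measure the spread between these samples. Dsg4 had the largest log2 fold change and Dsg1a, the most abundant desmoglein, the smallest. The count was also 9 without control replicate 2, with Dsg1c again in it. The controls left then held 0.0370 to 0.0935 FPKM of Dsg4, under the filter of 0.1, so Dsg4 adds no weight to that count either. In that fit 2196 of the 15288 genes were higher past both limits and 1871 lower, in place of 1740 and 1678.

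**Figure D1:**
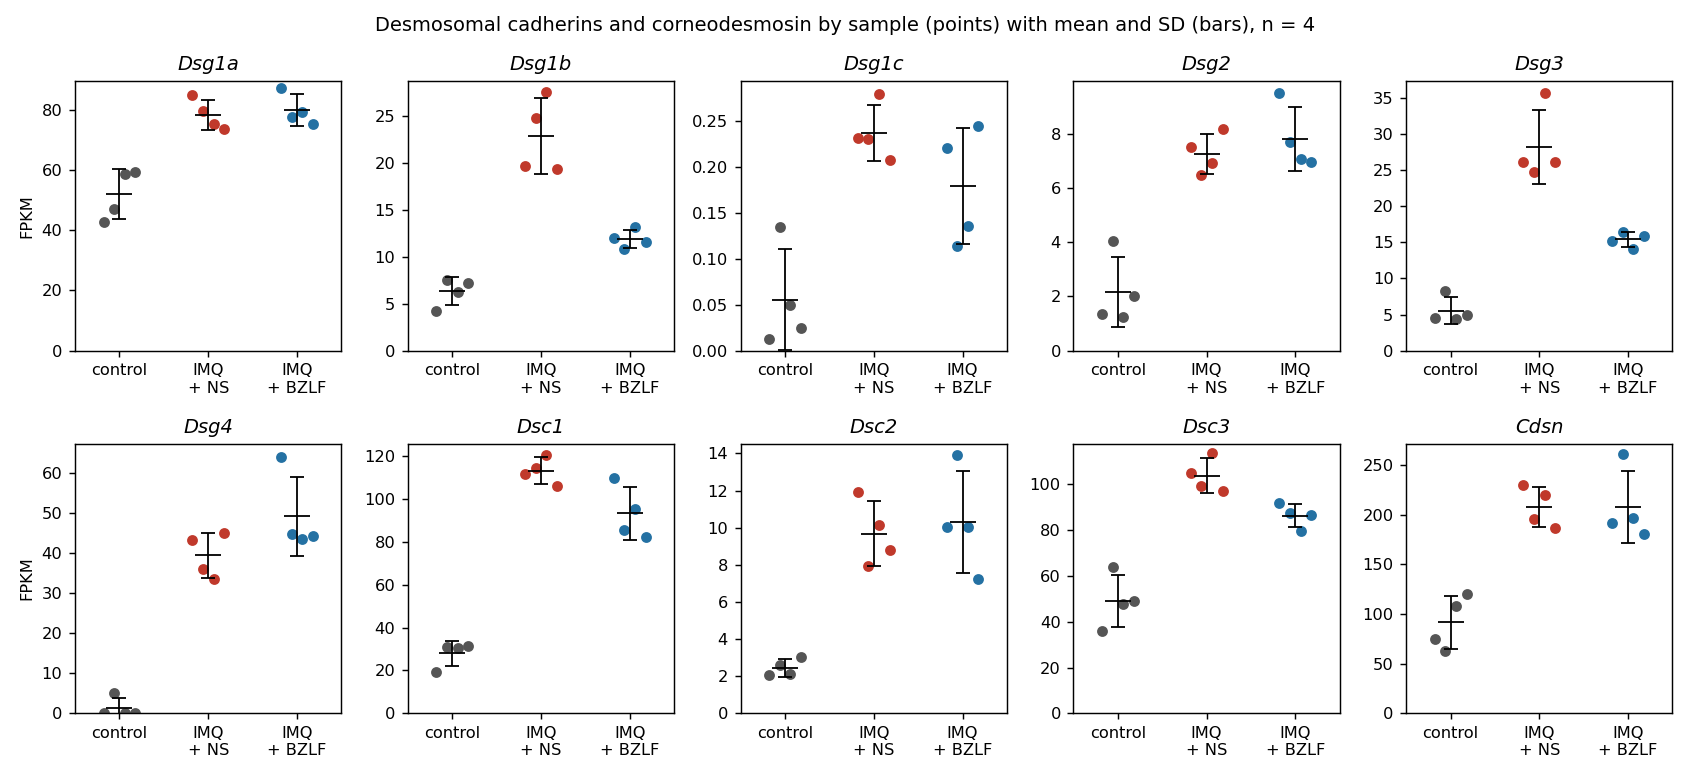
FPKM (linear axis, separate for each gene) of the 10 genes in the 4 samples (points) of each group (control, then NS, then BZLF after IMQ), with bars for the mean and SD. Every gene is higher in IMQ + NS than in control samples, Dsg1b and Dsg3 lie between in IMQ + BZLF samples, and Dsg4 is close to 0 in 3 of 4 controls.

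Dsg4 had an FPKM of 0.0935, 5.19, 0.0515 and 0.0370 in control replicates 1 to 4. In IMQ + NS replicates 1 to 4 it had 43.3, 36.03, 33.4 and 44.9 FPKM, so every lesion lay far above every control, and control replicate 2 lay apart from the other controls. The log2 fold change was 6.68 (standard error 1.06, adjusted p = 8.73e-04, limma). It was 7.95 without control replicate 2, and 7.62 or 4.61 with 0.01 or 1 added before the logarithm in place of 0.1. Hair genes moved with it. The sum of 10 hair shaft genes was 13.6 to 32.6 FPKM in 3 controls, 317 FPKM in control replicate 2 and 6230 to 9147 FPKM in IMQ + NS samples, and all 10 rose. The sum of 7 inner root sheath genes was 8180 to 10397 FPKM in IMQ + NS samples, and all 7 rose. Their part in the Dsg4 result was not tested.

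Dsg3, the pemphigus vulgaris antigen of the lower epidermis, followed. Its FPKM was 4.597, 8.25, 4.42 and 4.99 in control replicates 1 to 4 and 26.2, 24.7, 35.7 and 26.1 in IMQ + NS replicates 1 to 4. The log2 fold change was 2.35 (standard error 0.21, adjusted p = 4.35e-05, limma), and the lowest lesion was well above the highest control. Dsg2, which is widespread in simple epithelia and sparse in normal epidermis, had 1.36, 4.05, 1.23 and 2.01 FPKM in the controls and 7.499, 6.47, 6.92 and 8.16 FPKM in the lesions. Its log2 fold change was 1.85 (standard error 0.33, adjusted p = 0.00148), with control replicate 2 again the highest control, and 2.20 without that sample.

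The desmoglein 1 copies differed among themselves. Dsg1a had 42.8, 47.0, 58.5 and 59.4 FPKM in control replicates 1 to 4 and 84.7, 79.6, 75.2 and 73.6 FPKM in IMQ + NS replicates 1 to 4. The groups did not overlap, and the difference of 0.60 on the log2 scale (standard error 0.12, adjusted p = 0.00250, limma) was under the fold limit. Dsg1b had 4.24, 7.54, 6.21 and 7.24 FPKM in controls and 19.7, 24.8, 27.5 and 19.3 FPKM in lesions, which is 1.86 on the log2 scale (standard error 0.20, adjusted p = 1.10e-04). As a share of Dsg1a, a ratio chosen after its values were seen, Dsg1b went from between 9.91% and 16.04% in controls to between 23.2% and 36.6% in IMQ + NS samples. Dsg1c was hardly expressed, at 0.0122 to 0.135 FPKM in controls and 0.207 to 0.280 FPKM in lesions. Its log2 fold change of 1.17 (adjusted p = 0.00502) became 0.23 with 1 added before the logarithm, and it passed the filter on low values through the IMQ groups.

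Among the desmocollins, Dsc1 had the largest log2 fold change. It had 19.2, 30.9, 30.6 and 31.2 FPKM in control replicates 1 to 4 and 111, 115, 121 and 106 FPKM in IMQ + NS replicates 1 to 4, which is 2.04 on the log2 scale (standard error 0.16, adjusted p = 1.93e-05, limma). Dsc2 was low throughout, with 2.05, 2.61, 2.10 and 3.06 FPKM in controls against 11.9, 7.93, 10.1 and 8.78 FPKM in lesions, which is 1.94 on the log2 scale (standard error 0.17, adjusted p = 4.12e-05). Dsc3, the desmocollin of the lower layers, had a high level in controls. It had 35.96, 63.8, 47.8 and 48.9 FPKM in controls and 105, 99.2, 114 and 96.9 FPKM in lesions, which is 1.10 on the log2 scale (standard error 0.16, adjusted p = 4.69e-04). This was 0.96, under the fold limit, without control replicate 1.

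Cdsn was the most abundant of the set in each group. It had 75.2, 62.8, 108 and 121 FPKM in control replicates 1 to 4 and 230, 195, 220 and 187 FPKM in IMQ + NS replicates 1 to 4. The log2 fold change was 1.23 (standard error 0.20, adjusted p = 9.56e-04, limma), and no lesion fell within the range of the controls.

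These values are from whole skin, in which fewer cells of a type and less RNA per cell cannot be told apart, and the makeup of the samples moved at the same time. In the IMQ + NS against the control group, 4 of 5 fibroblast genes and 5 of 5 skeletal muscle genes fell past both limits. Their sums went from 9866 to 14395 FPKM down to 2501 to 3374 FPKM, and from 3212 to 8017 FPKM down to 609 to 1435 FPKM. The 6 basal keratinocyte genes summed to 1347 to 1817 FPKM in controls and 3346 to 5435 FPKM in lesions, and 2 of them rose, with a median log2 fold change of 0.54 over the 6. For the 5 suprabasal genes the median was -0.03, with 1 higher and 2 lower. The 4 hyperproliferative keratins, by contrast, had a median of 6.52 and all rose. The part of these shifts in the results for the 10 genes was not tested.

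The lesions that received BZLF were then compared with those that received saline. In this comparison 0 of the 10 genes passed both limits in either direction, where 2.20% of all genes tested were lower and 0.321% higher. With no limit on the fold change, 2 of the 10, Dsg1b and Dsg3, were lower at an adjusted p under 0.05, against 5.17% of all genes tested, and 0 were higher, against 1.28%. At an unadjusted p under 0.05 with the fold limit kept the count was also 0, where 403 of 15288 genes were lower and 88 higher. The median log2 fold change was -0.14 over the 10 genes and -0.02 over all genes tested.

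Dsg1b had 12.02, 10.9, 13.1 and 11.6 FPKM in IMQ + BZLF replicates 1 to 4, all under the lowest IMQ + NS sample at 19.3 and above the highest control at 7.54. The log2 fold change against IMQ + NS was -0.92 (standard error 0.12, adjusted p = 0.00430, limma). The adjusted p lay between 0.00397 and 0.0225 over 19 alternatives of scaling, filter, variance model and samples left out. Dsg3 had 15.2, 16.5, 14.1 and 15.9 FPKM, again between the lowest lesion at 24.7 and the highest control at 8.25. Its log2 fold change was -0.85 (standard error 0.11, adjusted p = 0.00468), and its adjusted p lay between 0.00210 and 0.0195 over the same alternatives. As a share of Dsg1a, Dsg1b was 13.8% to 16.6% after BZLF, within or just above the range of the controls and below every IMQ + NS sample. Other keratinocyte genes and immune cell genes moved at the same step. The basal keratinocyte sum was 1649 to 2327 FPKM after BZLF against 3346 to 5435 FPKM. Of its 6 genes 1, Krt14, fell past both limits, with a median log2 fold change of -0.50 and Krt15 at 0.26. Of the 5 suprabasal genes 1, Krt77, rose past both limits and 0 fell, with a median of -0.48. For the hyperproliferative keratins 3 of 4 fell past both limits, with a sum of 1140 to 1392 FPKM against 2344 to 4207 FPKM. Of 5 immune cell genes, 3 fell past both limits, with a median log2 fold change of -1.12 over the 5 and a sum of 33.1 to 51.2 FPKM against 62.8 to 101 FPKM. Their part in the Dsg1b and Dsg3 results was not tested.

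**Figure D2:**
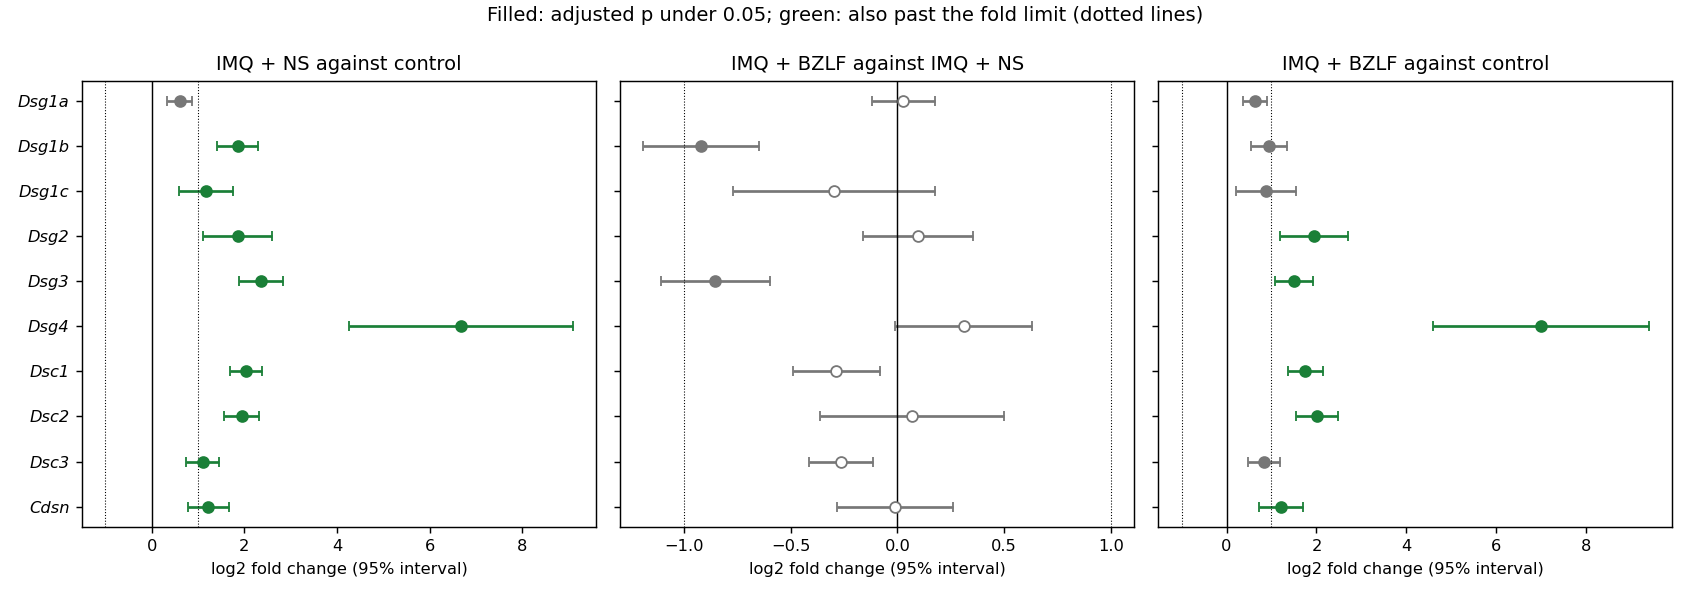
Log2 fold change with its 95% interval for each gene in the 3 comparisons, with a separate horizontal scale in the middle panel. Filled points have an adjusted p under 0.05, green points also pass the fold limit (dotted lines at -1 and 1). In the middle panel, IMQ + BZLF against IMQ + NS, Dsg1b at -0.92 and Dsg3 at -0.85 are the filled points, and the interval of Cdsn, -0.28 to 0.26, holds 0.

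The 95% intervals of the other 8 genes hold for each gene alone, for these samples and the main scaling. For Cdsn the difference between IMQ + BZLF and IMQ + NS samples was -0.01 on the log2 scale (95% interval -0.28 to 0.26), with 192, 261, 196 and 181 FPKM after BZLF. For Dsg1a it was 0.03 (-0.12 to 0.18), with 87.2, 77.5, 79.1 and 75.3 FPKM. For Dsg2 it was 0.10 (-0.16 to 0.35), with 9.51, 7.69, 7.06 and 6.96 FPKM. In each of these genes the samples of the IMQ groups overlapped. For Dsc2, with 10.1, 13.9, 10.04 and 7.25 FPKM after BZLF, the interval was wider, from -0.36 to 0.50, and for Dsg1c, with 0.115 to 0.245 FPKM, it ran from -0.77 to 0.18.
Dsc1 and Dsc3 were lower by a small amount that missed the threshold. Dsc1 had 110, 85.7, 95.3 and 82.2 FPKM after BZLF, a difference of -0.29 (interval -0.49 to -0.08, adjusted p = 0.101, limma). Dsc3 had 91.8, 87.2, 79.5 and 86.3 FPKM, all below the lowest IMQ + NS sample at 96.9, a difference of -0.26 (interval -0.42 to -0.11, adjusted p = 0.0505). Without IMQ + BZLF replicate 1 the adjusted p was 0.0201 for Dsc1 and 0.0405 for Dsc3. For each gene this was the only 1 of 19 alternatives under 0.05. With all 12 samples in 1 limma fit the adjusted p was 0.396 for Dsc1 and 0.391 for Dsc3. In all, 3 of the 10 genes were lower without overlap, against 10.9% of all genes tested, and 0 higher, against 4.24%.
Dsg4 was not lower. It had 64.0, 44.9, 43.6 and 44.2 FPKM after BZLF, of which replicate 1 was far above the other samples, a difference of 0.31 from IMQ + NS (interval -0.01 to 0.63, adjusted p = 0.235). The hair shaft sum was also highest in IMQ + BZLF replicate 1, at 12874 FPKM against 8387 to 9199 FPKM in the other samples of that group.

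The lesions treated with BZLF were also compared with normal skin, with the same control samples as above. Here 6 of the 10 genes were higher past both limits, Dsg2, Dsg3, Dsg4, Dsc1, Dsc2 and Cdsn, against 9.65% of all genes tested. The log2 fold change was 6.99 for Dsg4 (adjusted p = 9.00e-04, limma), 2.01 for Dsc2 (1.61e-04) and 1.95 for Dsg2 (0.00153). It was 1.75 for Dsc1 (1.22e-04), 1.498 for Dsg3 (3.85e-04) and 1.21 for Cdsn (0.00183). Dsg1a at 0.63, Dsc3 at 0.84, Dsg1b at 0.94 and Dsg1c at 0.88 had an adjusted p under 0.05 and stayed under the fold limit, so that 10 genes were higher with no fold limit, against 23.8% of all genes tested. In the other direction 0 genes were lower, where 10.1% of all genes tested were lower past both limits and 29.2% with no fold limit. The groups did not overlap for 9 of the 10 genes, all higher, against 19.4% of all genes tested that were higher without overlap and 28.1% lower. The exception was Dsg1c, whose adjusted p of 0.0327 was under 0.05 in 10 of 18 alternatives and reached 0.0859 without control replicate 1. It was also above 0.05 without control replicate 3 or 4 or IMQ + BZLF replicate 1 or 4, which leaves 9 genes. Dsg1c passed the filter on low values only through the IMQ groups, so it adds no weight to the count of 10. Without control replicate 2 the value was 1.03 for Dsg1b and 1.09 for Dsg1c, past both limits, and without control replicate 4 it was 1.01 for Dsg1b. For Dsg4 it was 8.26 without control replicate 2, and 8 of the 10 genes then passed both limits. Dsg1c and Dsg4 add no weight to that count, as the controls left held 0.0370 to 0.0935 FPKM of Dsg4, under the filter of 0.1. Calls also rose over all 15288 genes in that fit, to 1939 higher and 1811 lower in place of 1475 and 1542.

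The levels were also put in order within each group. In control skin Cdsn was highest with a mean of 91.6 FPKM, then Dsg1a with 51.9 and Dsc3 with 49.1, whose ranges overlapped, and then Dsc1 with 28.0. Below came Dsg1b (6.31) and Dsg3 (5.56), which overlapped, and Dsc2 (2.45), Dsg2 (2.16), Dsg4 (1.34) and Dsg1c (0.0555), where each neighbour overlapped with the next. In the IMQ + NS group Cdsn was followed by Dsc1 with 113 and Dsc3 with 104, whose ranges overlapped, by Dsg1a with 78.3, and then by Dsg4 with 39.4, Dsg3 with 28.2 and Dsg1b with 22.8, where again each neighbour overlapped with the next. In the IMQ + BZLF group the order was the same, with Dsg4 at 49.2, Dsg3 at 15.4 and Dsg1b at 11.9 FPKM. There Dsg4, Dsg3 and Dsg1b no longer overlapped with each other, while Dsg1b overlapped with Dsc2 at 10.3.

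The makeup of the desmoglein pool differed between the groups. Dsg1a made up 65.1% to 83.0% of the summed desmoglein FPKM in control samples, 42.0% to 46.6% in IMQ + NS samples and 46.4% to 50.3% in IMQ + BZLF samples. Dsg4 held 0.0502% to 0.176% in 3 controls and 7.19% in control replicate 2, against 18.7% to 26.1% in IMQ + NS samples and 27.7% to 34.0% after BZLF. Dsg3 held 6.28% to 11.4% in controls, 14.4% to 19.95% in IMQ + NS samples and 8.07% to 10.4% in IMQ + BZLF samples. Its share after BZLF lay within the range of the controls, though its level of 14.1 to 16.5 FPKM was above the highest control at 8.25. In the desmocollin pool Dsc3 held 58.8% to 65.5% in controls, 44.8% to 46.5% in IMQ + NS samples and 43.0% to 49.1% after BZLF, with Dsc1 taking most of the rest.

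**Figure D3:**
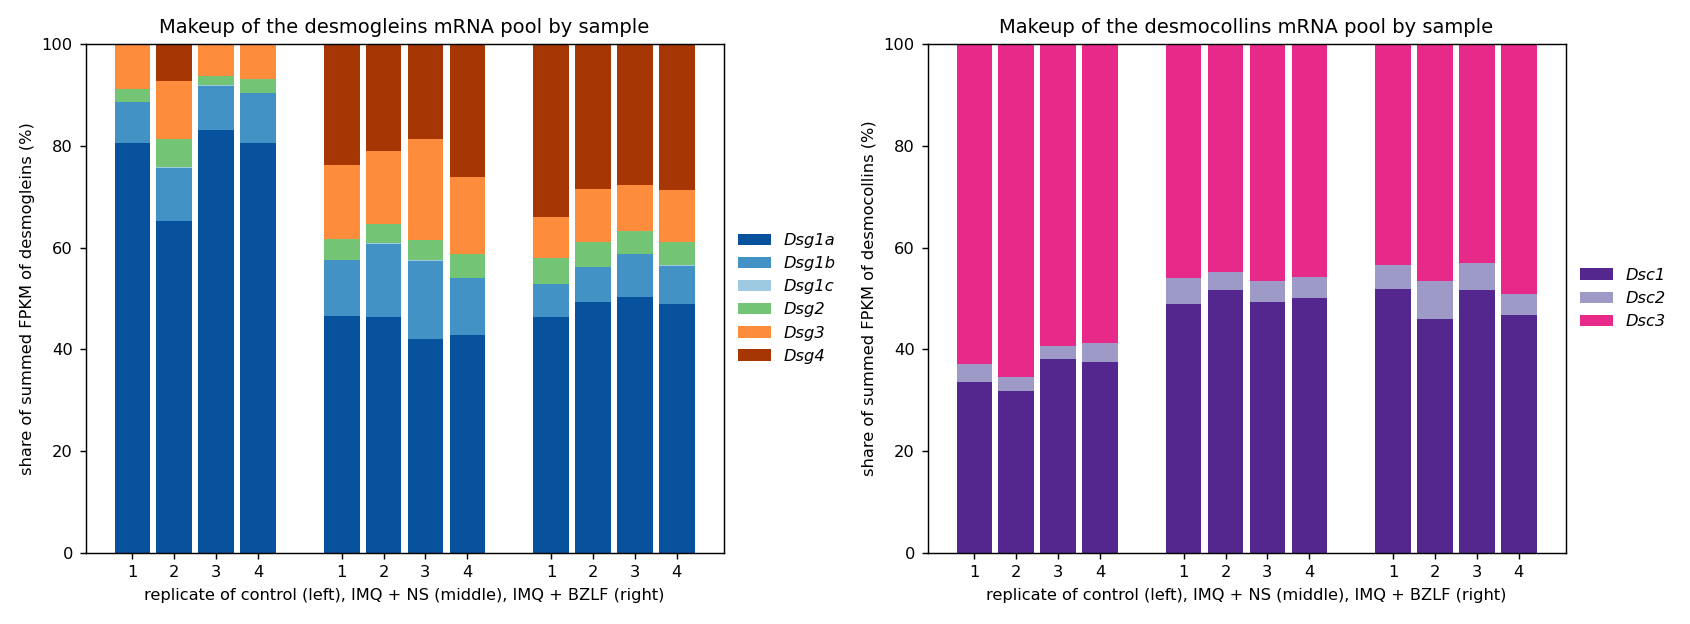
Share of each gene in the summed FPKM of the 6 desmogleins (left, %) and the 3 desmocollins (right, %), with a bar for each of the 12 samples. Dsg1a is 65.1% to 83.0% of the desmogleins in controls and 42.0% to 46.6% in IMQ + NS samples as Dsg4 and Dsg3 widen, and Dsc1 widens among the desmocollins.

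Sums and ratios within a sample were compared by an exact permutation test (two-sided) of 4 samples against 4, which cannot give a p below 0.0286, and p-values were adjusted over 7 measures and 3 comparisons. The summed desmogleins went from 67.4 ± 9.63 FPKM (SD, n = 4) in the control group to 176 ± 4.88 in the IMQ + NS group. They were 164 ± 15.99 in the IMQ + BZLF group. This was 2.64-fold from control to IMQ + NS and 0.929-fold from IMQ + NS to IMQ + BZLF (exact p = 0.0286 and 0.171). The summed desmocollins went from 79.5 ± 16.6 to 226 ± 13.8 and 190 ± 15.2 FPKM (exact p = 0.0286 for both steps). The step from IMQ + NS to IMQ + BZLF, 0.837-fold, rested on a gap between the groups smaller than the precision printed here. With median ratio scaling it was -0.20 on the log2 scale (exact p = 0.0857), and with samples rescaled to equal sums -0.23 (exact p = 0.0571). The summed desmoglein 1 copies, which depend less on how reads were divided between them, rose 1.75-fold in IMQ + NS samples (exact p = 0.0286) and were 0.907-fold after BZLF (exact p = 0.0571).
Ratios of a gene known from the lower layers to one known from the upper layers were taken in each family. The ratio of Dsg3 to the summed desmoglein 1 copies was 0.0979 ± 0.0374 (SD, n = 4) in controls. It was 0.278 ± 0.0492 in IMQ + NS samples and 0.168 ± 0.0181 after BZLF, with no overlap between any of the groups (exact p = 0.0286 for each of the 3 comparisons, adjusted p = 0.0462). The highest control, replicate 2 at 0.151, and the lowest sample after BZLF at 0.153 nearly met. The exact p was 0.0571 without any 1 of the IMQ + BZLF replicates in that comparison, and without IMQ + NS replicate 1, 3 or 4 in IMQ + NS against control. The ratio of Dsc3 to Dsc1 fell from 1.77 ± 0.244 in control to 0.917 ± 0.0354 in IMQ + NS samples (exact p = 0.0286, adjusted p = 0.0462) and was 0.935 ± 0.115 in IMQ + BZLF samples, with overlap between the IMQ groups (exact p = 0.886). The ratio of Dsc2 to Dsc1 was 0.0895 ± 0.0167, 0.0858 ± 0.0156 and 0.112 ± 0.0345 in the 3 groups, which overlapped. The ratio of summed desmogleins to summed desmocollins was 0.858 ± 0.0805 in controls, 0.780 ± 0.0350 in IMQ + NS samples and 0.865 ± 0.0220 after BZLF (exact p = 0.114 and 0.0286). The adjusted p of 0.0462 is shared by every permutation test at the floor of 0.0286, so it depends on how many tests reach that floor. Among them is the desmocollin step from IMQ + NS to IMQ + BZLF, whose exact p was above 0.05 with other scalings.

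**Figure D4:**
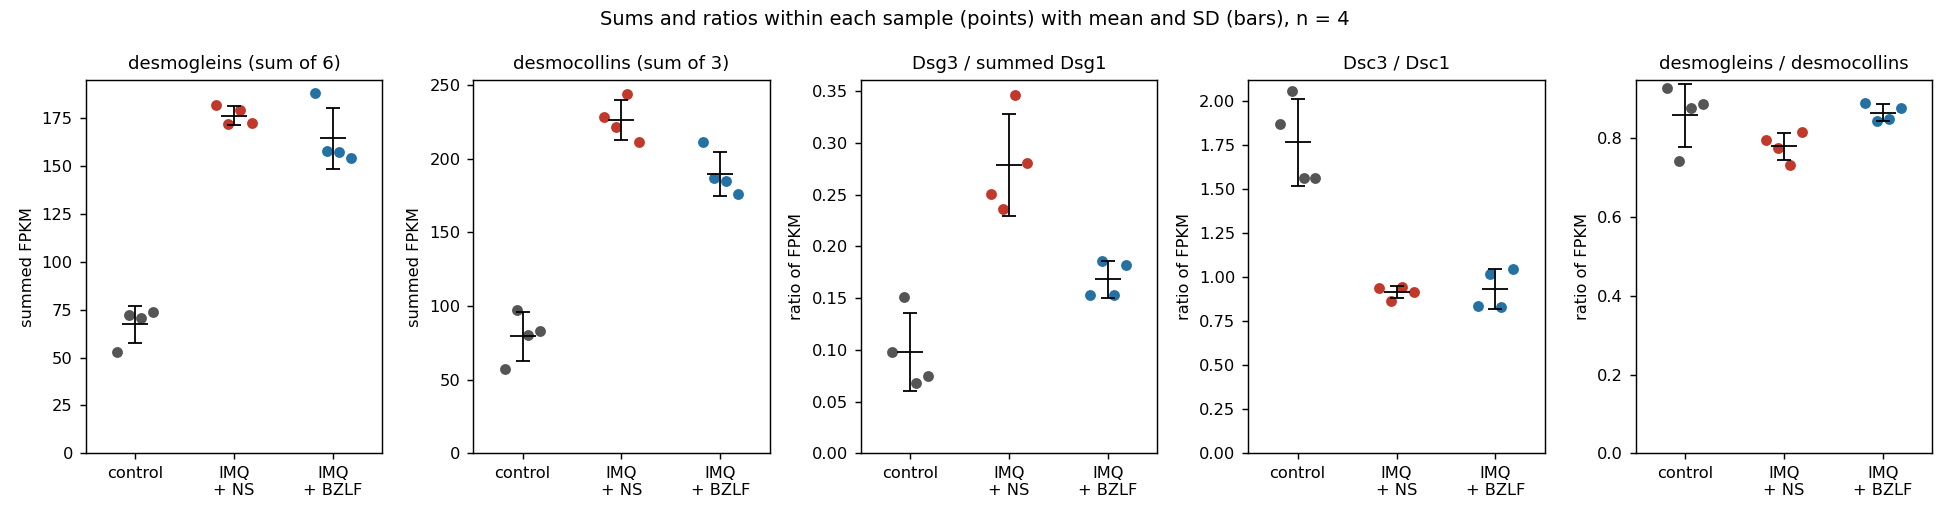
Summed FPKM of the desmogleins and desmocollins and 3 ratios of FPKM in each sample (points), by group, with bars for the mean and SD. The ratio of Dsg3 to the summed desmoglein 1 copies is highest in IMQ + NS samples and lies between after BZLF, while the ratio of Dsc3 to Dsc1 is low in all 8 IMQ samples.

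Genes related to these proteins were taken in 4 lists. Of all genes tested, 11.4% were higher and 11.0% lower past both limits in IMQ + NS against control. The shares were 0.321% and 2.20% in IMQ + BZLF against IMQ + NS, and 9.65% and 10.1% in IMQ + BZLF against control. With no fold limit 5.17% were lower in IMQ + BZLF against IMQ + NS. Of the 9 desmosomal plaque genes, 7 rose in IMQ + NS against control samples and 0 fell, with a median log2 fold change of 1.49. Pkp3 (plakophilin 3) had the largest value with 2.14 (adjusted p = 5.27e-05, limma), and Dsp, the desmoplakin that ties the plaque to keratin, went from 96.3 to 290 FPKM, a log2 fold change of 1.61. Jup, Pkp1, Evpl, Ppl and Perp also rose, Perp at 1.02 in 14 of 19 alternatives, and Pkp4, with 0.05, and Pkp2, with 0.36, did not pass. After BZLF 0 of the 9 passed both limits against IMQ + NS, with values from -0.35 for Pkp1 to 0.31 for Pkp2 and a median of -0.11. With no fold limit Pkp1 was lower (adjusted p = 0.0135), under 0.05 in 18 of 19 alternatives. Against control 6 of the 9 were higher after BZLF, Pkp3, Evpl, Dsp, Pkp1, Jup and Ppl, and 0 lower, from -0.07 for Pkp4 to 2.09 for Pkp3.
Adherens junctions, which tie cells to each other through actin, were covered by 8 genes. In the lesions 4 rose, Cdh3 (P-cadherin), Cdh1 (E-cadherin), Nectin1 and Nectin4, and 0 fell. Over the 8 the values ran from 0.51 for Ctnna1 (alpha-catenin), which did not pass the fold limit, to 2.43 for Cdh3, which was 3.04 without control replicate 2. After BZLF they lay between -0.19 for Cdh1 and 0.02 for Afdn, with 0 calls with or without the fold limit. Against control 4 were higher after BZLF, namely Cdh1, Cdh3, Nectin1 and Nectin4, from 0.46 for Ctnna1 to 2.27 for Cdh3 over the 8.

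Proteases taken as related to desmosome cleavage, whether or not each cuts desmosomes itself, and an inhibitor formed the next list. Of its 14 genes, 7 rose and 0 fell in IMQ + NS against control samples. Klk13 had the largest value with 5.72, then Klk6 with 4.59 and Klk14 with 4.39, and Klk7, St14, Klk8 and Klk10 also rose. Klk14 averaged 0.0928 FPKM in controls and passed the filter on low values only through the IMQ groups. It therefore adds no weight to the count of 7, and its value ran from 2.08 to 5.86 over the alternatives. Klk7, a chymotrypsin-like kallikrein that cleaves corneodesmosin, went from 45.7 to 206 FPKM. Spink5, whose product inhibits some of the kallikreins, had the smallest value with 0.02. After BZLF 5 of the 14 fell and 0 rose against IMQ + NS, where 2.20% of all genes tested were lower and 0.321% higher. The log2 fold change was -2.72 for Klk6 (adjusted p = 0.00157, limma), -2.70 for Klk13 (0.00183), -1.75 for Klk14 (0.0432), -1.33 for Klk8 (0.0435) and -1.08 for Klk11 (0.0385), with St14 at the other end at 0.06. These calls depended on the samples and settings. Klk6 and Klk13 passed in 19 of 19 alternatives, Klk8 and Klk11 in 10 and Klk14 in 6. The count was 2 without IMQ + BZLF replicate 1, 2 or 4, without IMQ + NS replicate 2, with no filter on low values or with no trend in the variances, and 3 without IMQ + NS replicate 1, 3 or 4 or with 1 added before the logarithm. With no fold limit Klk7, at -0.88 (adjusted p = 0.0245), and Klk10, at -0.84 (0.0356), were lower too, under 0.05 in 15 and 8 of 19 alternatives. Against control 5 were higher after BZLF, Klk13, Klk14, St14, Klk6 and Klk7, and the values over the 14 ran from -0.46 for Spink5 to 3.01 for Klk13. Klk14 adds no weight to that count of 5 either.
Of 10 transcription factors of epidermis and hair, 8 rose and 0 fell in the lesions. Foxn1, a regulator of hair shaft keratinization, had the largest value with 4.82, Hoxc13 had 4.11, Lef1 had 3.23 and Ovol1 had 2.85. Control replicate 2 held 22.8 FPKM of Hoxc13 against 0.752 to 1.83 FPKM in the other controls and 8.08 FPKM of Lef1 against 0.424 to 0.695 FPKM. Without it the log2 fold change was 5.17 for Hoxc13 and 4.17 for Lef1. Zfp750, Grhl1, Grhl3 and Trp63 also rose, and Gata3, at 0.67, and Klf4, at 0.04, did not pass both limits. After BZLF 0 passed both limits against IMQ + NS. With no fold limit Grhl3 (-0.46, adjusted p = 0.0373) and Trp63 (-0.25, adjusted p = 0.0416) were lower, under 0.05 in 8 and 5 of 19 alternatives, and Hoxc13 had the largest value with 0.30. Against control 6 were higher after BZLF, Foxn1, Hoxc13, Lef1, Ovol1, Grhl1 and Zfp750, from -0.12 for Klf4 to 4.96 for Foxn1 over the 10.

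**Figure D5:**
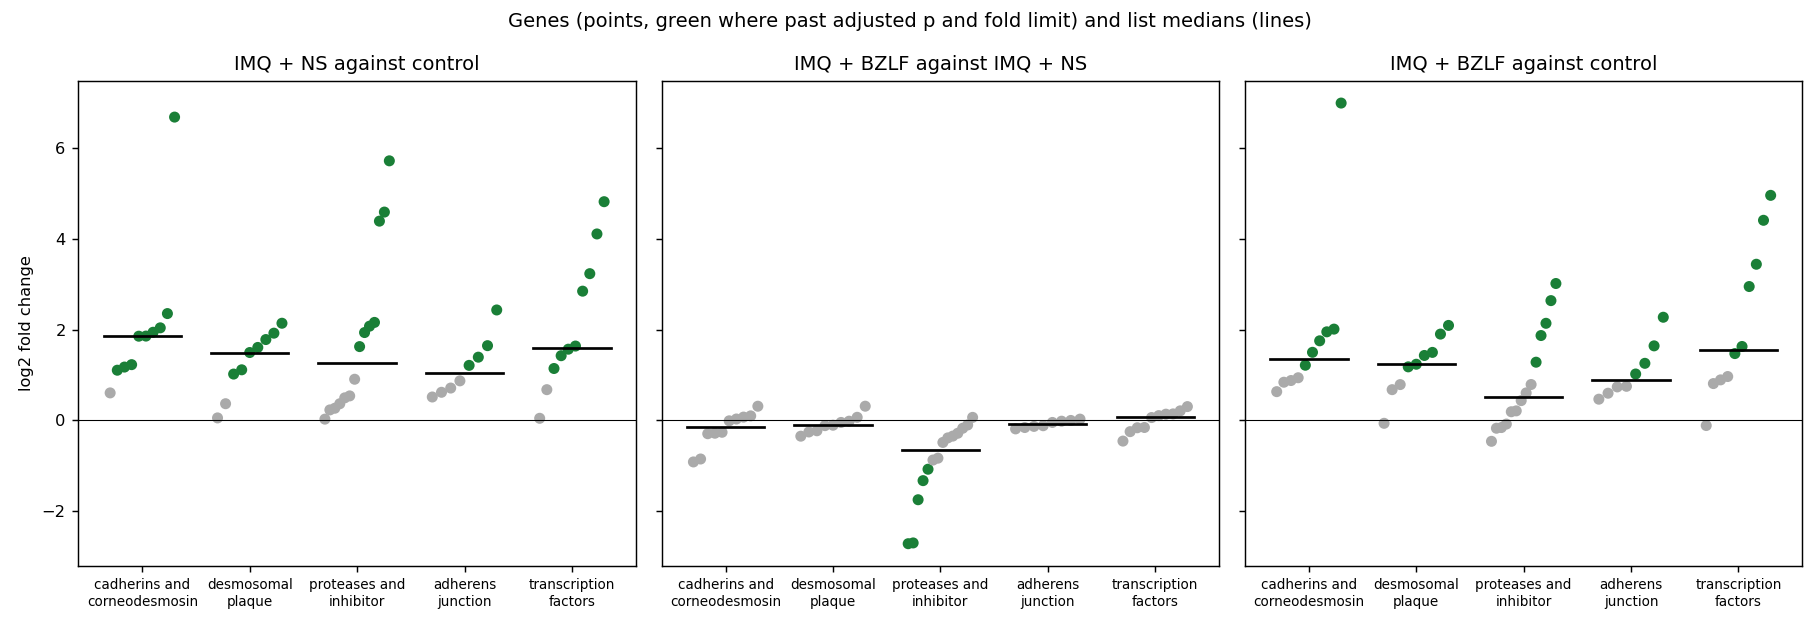
Log2 fold change of each gene (points) in the cadherin and corneodesmosin set and in 4 lists of related genes, for the 3 comparisons, with lines at the list medians. Green points pass an adjusted p of 0.05 and the fold limit, and in IMQ + BZLF against IMQ + NS they are 5 proteases.

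The genes most like each of the 10 in pattern were those with the smallest root mean square difference over the 12 samples, after each gene was centred on its mean on the log2 scale, among the 12657 genes that averaged 1 FPKM or more. Dsg4 was nearest to the hair genes Padi3 (0.22), Prr9 (0.25) and Tchh (0.28), while the nearest of the other 9 genes, Dsg2, was 2.51 away. Dsc1 was nearest to Cers3 (0.14), a ceramide synthase of the epidermal barrier, and to the plaque genes Evpl (0.16) and Pkp1 (0.16). Dsc3 was nearest to Perp (0.10), Plxnb2 (0.10) and Cdh1 (0.10). Dsg3 was nearest to Cwh43 (0.17), Fabp5 (0.20) and Lrat (0.21), and Dsg1b to Ckmt1 (0.16), Pla2g4f (0.18) and Fam83b (0.21), and Dsg3 and Dsg1b were each the nearest of the set to the other (0.34). Dsg1a was nearest to Lonrf1, Efna3 and Rassf7 (0.06 to 0.09), Dsg1c to Kctd1, Lrfn4 and Abhd17c (0.14 to 0.17) and Dsg2 to B4galnt3, Garem1 and Micalcl (0.14 to 0.15). Dsc2 was nearest to Lypd5, Dedd2 and Ppif (0.20 to 0.21) and Cdsn to Crct1, Fam214a and Anxa9 (0.12 to 0.16). The 12 samples share their groups, so any gene with a like change between the groups lies near.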

How the data were processed

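RNA from back skin of 12 samples was sequenced. The deposited values are FPKM per gene, which the authors computed from their aligned reads. The study's methods name Bowtie2 and eXpress, whereas the submitters' processing notes name fastp, HISAT2, HTSeq, R 3.2.0 and mm10, and the library kits also differ between these sources, so the division of shared reads between gene copies is not settled. Of 26997 low values checked, 24.7% lay within 0.05 of a whole multiple of 1 read, so read counts were not recovered and the depth is unknown.

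Groups followed the sample titles. Genes averaging 0.1 FPKM or more (15288 of 18505, all 10 members among them) were fitted as log2(FPKM + 0.1) with limma 3.58.1 (R 4.3.3, trended variances), separately for each pair of groups. P-values were adjusted by Benjamini-Hochberg over all genes tested, and a call needed an adjusted p under 0.05 and an absolute log2 fold change over 1. Fold changes are on that log2 scale, which understates changes of low genes. Ratios and sums were tested by exact permutation of 4 against 4 samples. Named genes were the 10 members, the genes called and the extremes of each list, and the 3 genes nearest to each member. The members and lists were chosen with earlier results of these data known. The fit was tested on simulated data. Alternatives changed the added value, filter, scaling, variance model, block and samples. Python 3.11.15, pandas 2.3.3, numpy 2.4.6 and matplotlib 3.10.9 were used.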

Additional observations from a re-analysis of the deposited data

Results flagged for a closer look

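In 51 groups of 4 samples examined, 8 had a highest or lowest sample whose gap to its nearest neighbour, divided by the range of the group, was over Dixon's critical value at the 95% level. Chance alone flags about 1 in 20 groups, and the measures overlap.

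Control replicate 2 was set apart by Dsg4, with 5.19 FPKM, and by Dsg3, with 8.25 FPKM, each the highest of the controls. This is the sample with an inner root sheath sum of 1959 FPKM. Control replicate 1 was the lowest control for Dsc1, with 19.2 FPKM, and for the summed desmogleins, with 53.1 FPKM. IMQ + NS replicate 3 was the highest of its group for Dsg3, with 35.7 FPKM, and IMQ + NS replicate 4 the lowest for the summed desmoglein 1 copies, with 93.1 FPKM. IMQ + BZLF replicate 1 was the highest of its group for Dsg4, with 64.0 FPKM, and for the summed desmogleins, with 188 FPKM.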

How the results depend on the processing

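Of 627 fold changes of the 10 genes under the alternatives, 612 kept their side of the limits, 11 passed newly and 4 no longer passed. The 4 were, in IMQ + NS against control samples, Dsg1c with 1 added (0.23) or quantile normalization (0.95) and Dsc3 with equal sums (0.97) or without control replicate 1 (0.96). Of the fold changes past both limits 0 reversed. Between the IMQ groups, small fold changes that did not pass changed sign under some alternatives. They ran from -0.016 to 0.084 for Dsg1a, -0.0015 to 0.153 for Dsg2, -0.086 to 0.225 for Dsc2 and -0.128 to 0.061 for Cdsn. Without a fold limit the count of genes lower in IMQ + BZLF than in IMQ + NS was 2 in place of 0, and of genes higher than in control 10 in place of 6. Equal sums and quantile normalization moved the median log2 fold change of all genes by -0.13 and -0.12 in IMQ + NS against control samples. The summed desmocollins, IMQ + BZLF against IMQ + NS (-0.26), were -0.20 with median ratio scaling, -0.23 with equal sums, and -0.31 to -0.22 with 1 sample left out. Their exact p was 0.0571 without IMQ + BZLF replicate 4 or any 1 of the IMQ + NS replicates. With 1 sample left out, the summed desmogleins were -0.17 to -0.077, and without IMQ + BZLF replicate 1 the -0.17 had an exact p of 0.0286. The ratio of Dsg3 to the summed desmoglein 1 copies was 1.42 to 1.80 in IMQ + NS and 0.70 to 1.08 in IMQ + BZLF against control samples. Its exact p was 0.0571 without IMQ + NS replicate 1, 3 or 4 in the former and without any 1 of the IMQ + BZLF replicates in the latter. The ratio of summed desmogleins to summed desmocollins was -0.20 to -0.10 in IMQ + NS against control, with an exact p of 0.0286 without control replicate 2 (-0.20), and 0.12 to 0.17 between the IMQ groups, with 0.0571 without IMQ + BZLF replicate 1 or 4.

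No source says that samples with the same replicate number belong together, although the pancreas genes had their highest and lowest sums at the same numbers in each group. Over all genes the correlation of the deviations of same-numbered samples was -0.15 to 0.18, -0.03 to 0.26 and -0.08 to 0.18 in the 3 comparisons. For samples with different numbers it was -0.20 to 0.14, -0.24 to 0.16 and -0.22 to 0.27. With the replicate block 9 of the 10 genes passed both limits in IMQ + NS against control samples, and over all genes 1730 were higher and 1684 lower. In IMQ + BZLF against IMQ + NS samples 47 were higher and 335 lower. For the sums and ratios, a sign-flip test over 4 pairs cannot pass 0.05. The depth is unknown, and Dsg1c lies too near 0 for its fold change to be read closely.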
